A study of Mus musculus with 8 samples.

Results

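The genes described here are the 10 core regulators of the G1 phase named Ccnd1, Ccnd2, Ccnd3, Ccne1, Cdk4, Cdk6, Cdkn1a, Cdkn1b, Cdkn2c and Rb1. They were chosen by name, with earlier results of these data known, out of 25977 named genes with a transcript in the pre-B RNA-seq files. All 10 had a mean of at least 1 TPM, the StringTie level that is scaled by transcript length and library total, and so were among the 11835 genes tested. The mice were C57BL/6 and carried the R26R-EYFP reporter and the iCre Vav1 transgene, which drives Cre in haematopoietic cells. Dido1∆E16 animals were Dido1 flE16/∆E16, with a floxed exon 16 on one allele and a germline deletion of it on the other, and the controls, called WT, were heterozygous Dido1 flE16/+ littermates that expressed the same Cre. Thus the WT cells could also lose exon 16 on one allele. The animals were 6 to 10 weeks old. Pre-B cells (sorted by surface markers that included B220+ and IgM-, with no further gate against pro-B cells) were sorted from bone marrow, pooled from 2 to 3 mice and sequenced as 2 RNA-seq libraries per genotype. LSK progenitors (Lin-Sca1+cKit+) gave 2 Omni-ATAC-seq libraries per genotype, in which a transposase marks open DNA. With 2 libraries per group the p-values measure only the spread between those libraries.

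D-type cyclins (Ccnd1, Ccnd2, Ccnd3) accumulate in G1 in response to growth signals and activate the kinases Cdk4 and Cdk6, which begin to phosphorylate the retinoblastoma protein Rb1. Cyclin E (Ccne1) with Cdk2 completes that phosphorylation, which frees E2f factors to transcribe genes of DNA replication. Cdkn2c (p18INK4c) binds Cdk4 and Cdk6, whereas Cdkn1a (p21) and Cdkn1b (p27) bind cyclin-kinase complexes more broadly. In B cell precursors, large cycling pre-B cells leave the cycle to become small resting pre-B cells, and Ccnd3 is known to be required for the pre-B expansion, while Ccnd2 is the D cyclin induced by growth factor and receptor signals in many lymphoid cells.

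The sequences upstream of the start sites are shown first, because the LSK data give for each of them whether it was open. RefSeq promoters (GRCm38.p6, the build of the files) were given for 7 of the 10 members, with 10 start sites, and not for Ccnd1, Ccnd2 and Rb1. Each run below holds the 250 bases before the start, written 5′ to 3′ on the strand of the gene, with capitals for GC boxes (GGGCGG) and E-boxes of the form CACGTG, on either strand. Cdk4 (chr10:127063285-127063534, plus strand), Cdkn1b (chr6:134920151-134920400, plus strand) and Ccne1 (chr7:38107491-38107740, minus strand) are shown because a peak covered their start in all 4 LSK libraries.
Cdk4: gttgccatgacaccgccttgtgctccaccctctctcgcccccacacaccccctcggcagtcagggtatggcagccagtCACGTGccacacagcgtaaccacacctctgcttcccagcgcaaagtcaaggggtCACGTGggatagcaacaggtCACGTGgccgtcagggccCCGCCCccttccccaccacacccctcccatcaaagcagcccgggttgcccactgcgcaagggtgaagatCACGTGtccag
Cdkn1b: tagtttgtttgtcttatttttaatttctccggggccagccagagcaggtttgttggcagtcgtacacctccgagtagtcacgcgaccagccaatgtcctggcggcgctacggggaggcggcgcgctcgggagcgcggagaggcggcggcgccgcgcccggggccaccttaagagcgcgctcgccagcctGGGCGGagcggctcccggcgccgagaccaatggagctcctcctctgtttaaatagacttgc
Ccne1: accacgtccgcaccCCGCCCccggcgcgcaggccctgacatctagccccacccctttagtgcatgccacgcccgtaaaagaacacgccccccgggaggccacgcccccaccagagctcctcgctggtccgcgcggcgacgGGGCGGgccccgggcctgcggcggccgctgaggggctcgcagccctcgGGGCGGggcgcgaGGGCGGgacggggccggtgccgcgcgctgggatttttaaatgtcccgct
Cdk6 (chr5:3343643-3343892, plus strand) and Ccnd3 (chr17:47504801-47505050, plus strand) are shown because MACS2, the peak caller used throughout unless HOMER is named, called no peak there in at least 1 Dido1∆E16 library, and Cdkn2c (chr4:109666757-109667006, minus strand) because the authors listed the region as differing between genotypes.
Cdk6: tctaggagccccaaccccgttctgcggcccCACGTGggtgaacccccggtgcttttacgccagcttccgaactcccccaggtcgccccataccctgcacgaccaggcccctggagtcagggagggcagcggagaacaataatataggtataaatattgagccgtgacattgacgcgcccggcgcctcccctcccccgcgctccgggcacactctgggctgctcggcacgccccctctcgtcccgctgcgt
Ccnd3: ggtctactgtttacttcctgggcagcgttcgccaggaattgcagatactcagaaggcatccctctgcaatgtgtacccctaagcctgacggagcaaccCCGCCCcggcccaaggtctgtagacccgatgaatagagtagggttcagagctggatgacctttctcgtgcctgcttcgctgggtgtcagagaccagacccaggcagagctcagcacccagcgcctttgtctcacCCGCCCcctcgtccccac
Cdkn2c: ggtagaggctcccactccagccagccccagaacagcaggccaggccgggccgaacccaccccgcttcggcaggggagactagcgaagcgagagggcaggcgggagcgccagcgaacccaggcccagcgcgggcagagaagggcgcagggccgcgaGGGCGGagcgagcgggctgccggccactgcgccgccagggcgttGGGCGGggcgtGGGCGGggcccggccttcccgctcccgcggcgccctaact

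GC boxes stood in 7 of the 10 member windows, beside 32.7% of all 32851 RefSeq windows of the same length. The GC content of the 10 member windows ranged from 42.8% for the downstream start of Cdkn2c to 77.2% for its upstream start, beside a median of 52.4% over all windows. Cdk4 held 4 copies of CACGTG, the E-box to which Myc and its partner bind, and Cdk6 held 1. At least 1 copy was found in 6.02% of all windows, and at least 4 copies in 7 of the 32851 windows (0.0213%), a limit set after the Cdk4 sequence had been seen. None of the 10 member windows held an E2f octamer (TTTCCCGC, TTTCGCGC, TTTGCCGC or TTTGGCGC), which 1.86% of all windows held. CCAAT was found in 2 of the 10 windows, beside 33.8% of all, and TATAAA in 1 of the 10, beside 12.4%. These are matches of letters and no evidence of binding.

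The labels were first checked on the targeted gene. Coverage of the last exon of the long Dido1 transcript, exon 16, was 24.6 and 21.8 on the TPM scale in the WT libraries but 0.295 and 0.084 in those of Dido1∆E16 cells. StringTie had scaled its values to 1917.1 and 1369.9 Mb of aligned sequence in the WT libraries and 1975.4 and 1424.7 Mb in the Dido1∆E16 libraries. The WT libraries differed from each other in genes of dividing cells. All marker lists used here were chosen with earlier results of these data known. The summed TPM of 10 cycling-cell markers, among them Mki67 and Top2a, was 1610 in WT replicate 1, 195 in WT replicate 2, 589 in Dido1∆E16 replicate 1 and 787 in Dido1∆E16 replicate 2. Both Dido1∆E16 libraries lay between the WT libraries for all 10 of these markers, beside 2528 of all 11835 genes tested. Pre-B genes such as Cd79a and Rag1 were abundant in all 4 libraries, with Rag1 between 696 and 831 TPM. Other cell types were present at varying levels. The sum of 7 neutrophil and monocyte markers was 194 and 1549 TPM in WT and 780 and 6454 TPM in Dido1∆E16, and of the 4 erythroid markers found out of 6 it was 56.7, 184, 129 and 1622 TPM in the same order. The 6 T and NK markers summed to 6.92 and 4.56 TPM in WT and to 8.18 and 26.0 TPM in Dido1∆E16 cells, the highest sum including 16.2 TPM of Nkg7, and Cd3e, Cd4 and Cd8a were listed at 0 in all 4 libraries. The 6 mature B markers summed to between 1414 and 1715 TPM and the 5 plasma cell markers to between 594 and 908 TPM.

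In pre-B cells Ccnd2 was the member that differed most clearly between the genotypes, with about 4 times more transcript in Dido1∆E16 cells, although it did not reach the threshold after adjustment over all genes. For Ccnd1, Ccnd3 and Cdkn1a, too, each Dido1∆E16 value was above each WT value, and for Rb1 each was below, none of these with an adjusted p under the threshold. The other 5 members overlapped between the genotypes. A gene was called at a Benjamini-Hochberg adjusted p under 0.05 and a log2 fold change of 0.6 or more in size, in limma on log2(TPM + 1), a scale that understates the change of low genes. By this rule 0.0507% of the 11835 genes were called, 6 genes in all, and none of the 10 members. At an unadjusted p under 0.05, limma gave 1 of the 10 members as higher (Ccnd2), beside 8.67% of all genes, and none as lower, beside 3.04% of all genes. Without WT replicate 1 this count of members was 9 (8 higher and 1 lower), beside 16.9% of all genes higher and 5.01% lower, and without WT replicate 2 it was 4 (2 higher and 2 lower), beside 8.25% and 5.89%. Both Dido1∆E16 libraries stood above both WT libraries in 4 of the 10 members, against 27.2% of all genes, and below them in 1 of the 10, against 15.6%. The median log2 fold change was 0.42 over the members and 0.07 over all genes tested.

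**Figure D1:**
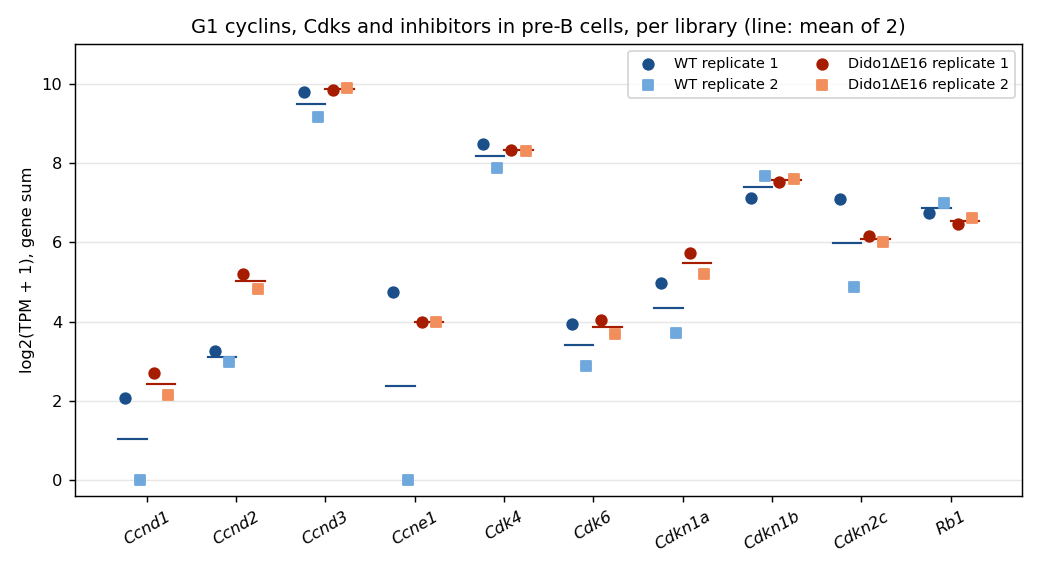
Gene-sum levels of the 10 members in pre-B cells, on the y axis as log2(TPM + 1), with 1 point per library (circles replicate 1, squares replicate 2) and a line at the mean of the 2 libraries of a genotype. The Ccnd2 points of the genotypes are well apart, and WT replicate 2 stands at 0 for Ccnd1 and Ccne1.

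Among the D-type cyclins, Ccnd3 was by far the most abundant in pre-B cells and Ccnd2 the one with the largest measured difference relative to its spread. Ccnd2 (chr6:127125709-127151048, minus strand) was measured at 8.56 and 6.85 TPM in WT replicates 1 and 2 and at 36.1 and 27.1 TPM in Dido1∆E16 replicates 1 and 2. Both Dido1∆E16 values were thus well above both WT values, with means of 7.71 ± 1.21 TPM (SD, n = 2) in WT and 31.6 ± 6.37 TPM (SD, n = 2) in Dido1∆E16 cells, a ratio of 4.10. In limma the log2 fold change was 1.90 (SE 0.25, 95% interval from 1.22 to 2.58), with an unadjusted p of 0.00131 and an adjusted p of 0.189. It ranked 77th of the 11835 genes by unadjusted p. Leaving out each library in turn gave log2 fold changes from 1.70 to 2.1, and the adjusted p stayed between 0.0934 and 0.489 over all alternatives tried.

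Nearly all Ccnd2 signal lay in the full-length transcript of 5 exons, and each exon showed the same order of libraries by genotype. Coverage of exon 1 was 5.79 and 6.23 on the TPM scale in WT and 30.4 and 15.2 in Dido1∆E16 cells, and that of the last exon, which is 4779 bases long, was 7.98 and 6.91 against 34.8 and 27.6. The ratio of the genotype means ran from 3.39 at exon 2 to 4.42 at exon 3. Exons of one transcript share their libraries and are not replicates. The antisense gene 9330179D12Rik, whose first exons lie in the first intron of Ccnd2, was at 0 TPM in WT and at 4.69 and 1.99 TPM in Dido1∆E16 replicates 1 and 2.

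Most markers of earlier B cell precursors differed in the same direction as Ccnd2. Of the 8 pro-B and large pre-B markers, 6 were higher at an unadjusted p under 0.05 in limma, beside the 8.67% of all genes. None was called after adjustment. The markers were chosen with earlier results of these data known, so their count is a description and no independent test. Vpreb1, a component of the surrogate light chain, was measured at 108 and 40.9 TPM in WT and at 1222 and 738 TPM in Dido1∆E16 cells. The remaining pair did not reach an unadjusted p under 0.05, with Il2ra at 269 and 268 TPM in WT and 261 and 301 TPM in Dido1∆E16 cells, and Cd24a at 2631 and 2424 against 1942 and 2075 TPM. The sum of the 8 markers was 3359 and 2928 TPM in WT and 4798 and 3922 TPM in Dido1∆E16 libraries. The part of these cells in the Ccnd2 value was not tested, and in a bulk sample a larger share of cells that express a gene cannot be told apart from more RNA per cell.

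Ccnd3 (chr17:47505051-47599688, plus strand) was the highest of all 10 members, at 891 and 569 TPM in WT and 916 and 942 TPM in Dido1∆E16 libraries. The highest WT value lay just under the lower Dido1∆E16 value, and the log2 fold change was 0.38 (SE 0.25, 95% interval from -0.29 to 1.06) with an adjusted p of 0.645 in limma. StringTie divided the Ccnd3 reads between transcripts differently in 1 library. A transcript that differs by a short stretch of exon 2 was listed at 0 in 3 libraries and at 296 TPM in Dido1∆E16 replicate 2, while the main transcript was measured at 855, 553, 881 and 622 TPM in WT replicates 1 and 2 and Dido1∆E16 replicates 1 and 2. The main transcript has no symbol in the authors' files, and with their symbols alone the Ccnd3 sums would be 36.0 and 15.8 TPM in WT and 34.8 and 320 TPM in Dido1∆E16 cells. The sums used here include it, by its GENCODE gene.

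Ccnd1 (chr7:144929931-144939925, minus strand) was the lowest member, at 3.21 TPM and listed at 0 in WT replicates 1 and 2, and at 5.49 and 3.45 TPM in Dido1∆E16 replicates 1 and 2. Its log2 fold change of 1.39 had an SE of 0.83 and an adjusted p of 0.621 in limma, so the difference was within the spread between libraries. In WT replicate 1 exons 3 and 4 had no coverage, while the Dido1∆E16 libraries covered all 5 exons, at 2.43 and 1.88 on the TPM scale for exon 3. A transcript of the opposite strand from the neighbouring gene Oraov1 ends within the last exon of Ccnd1 and was listed at 9.87 and 0 TPM in WT and at 9.54 and 13.7 TPM in Dido1∆E16 libraries. Since strand-specific counting is not stated, reads in that overlap cannot be assigned with certainty.

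Within each library Ccnd3 supplied nearly all D-cyclin transcript. Ccnd2 made up 0.948% and 1.19% of the summed TPM of the 3 D-type cyclins in WT and 3.77% and 2.79% in Dido1∆E16 cells. Ccnd3 made up 98.7% and 98.8% in WT and 95.7% and 96.9% in Dido1∆E16 cells. The total of the 3 genes was 903 and 576 TPM in WT and 957 and 973 TPM in Dido1∆E16 cells, so that both Dido1∆E16 values were above both WT values.

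Of the kinases that D-type cyclins activate, Cdk4 exceeded Cdk6 in every library, and neither gene sum differed between genotypes beyond the spread of the WT libraries. Cdk4 (chr10:127063603-127067282, plus strand) was measured at 353 and 234 TPM in WT and at 322 and 314 TPM in Dido1∆E16 cells. Its log2 fold change was 0.15 (95% interval from -0.49 to 0.78), with an adjusted p of 0.853 in limma. Both Dido1∆E16 values fell between the WT values. Cdk6 (chr5:3343893-3531005, plus strand) was measured at 14.2 and 6.4 TPM in WT and at 15.4 and 11.8 TPM in Dido1∆E16 cells. Its log2 fold change was 0.45 (SE 0.43), with an adjusted p of 0.734 in limma. Its share of the summed TPM of both kinases was 3.87% and 2.67% in WT and 4.56% and 3.63% in Dido1∆E16. Without WT replicate 2 the log2 fold changes of Cdk4 and Cdk6 turned to -0.15 and -0.07.

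The Cdk6 sum was set by its last exon, which holds 10361 of the 11522 bases of the transcript. Over the other 7 exons, 1161 bases in all, mean coverage was 4.30 and 1.93 on the TPM scale in WT and 8.08 and 8.77 in Dido1∆E16 cells, a ratio of 2.71 between the genotype means. Over the last exon it was 15.3 and 6.90 in WT and 16.2 and 12.2 in Dido1∆E16 cells, a ratio of 1.28. In 5 of the 8 exons both Dido1∆E16 libraries stood above both WT libraries, and in none below. This split into exons was made after the values had been seen and rests on low coverage, so it was given no test.

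Rb1, which restrains E2f factors until it is phosphorylated, did not pass the test, and its exon coverage was uneven between the genotypes. Rb1 (chr14:73195502-73325791, minus strand) was measured at 106 and 127 TPM in WT and at 87.2 and 96.1 TPM in Dido1∆E16 cells. The groups did not overlap, and the log2 fold change of -0.33 (SE 0.15, 95% interval from -0.75 to 0.09) had an unadjusted p of 0.0928 and an adjusted p of 0.523 in limma. Mean coverage over exons 1 to 17 was 73.8 and 91.9 on the TPM scale in WT and 78.2 and 90.7 in Dido1∆E16 cells, a ratio of 1.02. Over exons 18 to 27 it was 126 and 150 in WT and 93.1 and 99.7 in Dido1∆E16 cells, a ratio of 0.699, and both Dido1∆E16 libraries stood below both WT libraries in 9 of these 10 exons. The boundary was chosen after the exon values had been seen, and no test was made. The intron between exons 17 and 18 holds Lpar6 on the opposite strand, which was measured at 14.4 and 22.6 TPM in WT and at 25.8 and 12.3 TPM in Dido1∆E16 libraries.

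**Figure D2:**
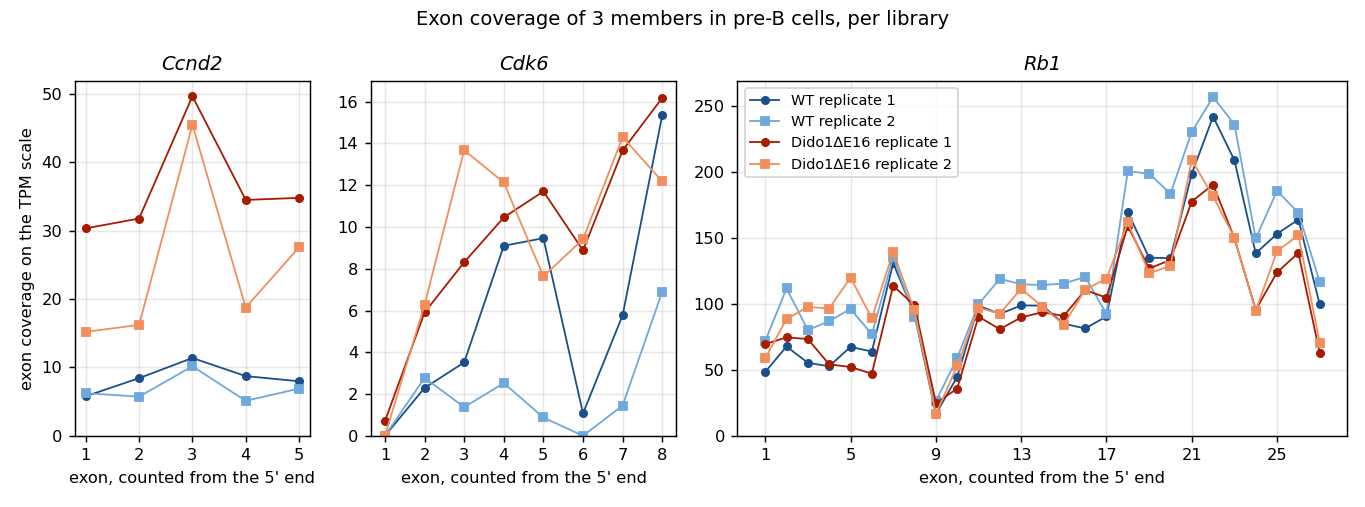
Coverage of each exon on the TPM scale (y axis, from 0) against the exon number counted from the 5′ end (x axis) for Ccnd2, Cdk6 and Rb1, with 1 line per library. The Ccnd2 lines separate by genotype at all 5 exons, those of Cdk6 at 5 of the 8 exons but not at the last, and those of Rb1 mainly from exon 18 onwards.

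Cyclin E1 could not be compared well. Ccne1 (chr7:38097984-38107490, minus strand) was measured at 26.1 TPM in WT replicate 1, listed at 0 in WT replicate 2, and measured at 14.9 TPM in both Dido1∆E16 libraries. The limma log2 fold change of 1.61 had an SE of 1.66 and an adjusted p of 0.750, and it turned to -0.77 without WT replicate 2. All 12 exons were listed at 0 in that library. Of all named genes, 34 were at 0 in WT replicate 2 alone while at least 10 TPM in each of the other 3 libraries, beside 13, 3 and 32 such genes for WT replicate 1 and Dido1∆E16 replicates 1 and 2.

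Among the inhibitors none passed the test, and the genotypes overlapped for Cdkn1b and Cdkn2c but not for Cdkn1a. Cdkn1a (chr17:29090979-29100722, plus strand) was measured at 30.6 and 12.2 TPM in WT and at 52.0 and 36.0 TPM in Dido1∆E16 cells. The means were 21.4 ± 13.0 TPM (SD, n = 2) in WT and 44.0 ± 11.3 TPM (SD, n = 2) in Dido1∆E16 cells. The log2 fold change was 1.12 (SE 0.49, 95% interval from -0.22 to 2.46), with an unadjusted p of 0.0827 and an adjusted p of 0.504 in limma. With the replicate number as a block, the unadjusted p was 0.0183 and the adjusted p 0.438. The signal was assigned to the short transcript in 3 libraries and to a longer one in Dido1∆E16 replicate 2, at 0.463 and 35.6 TPM, but the first exon of the longer transcript had no coverage in any library.

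Cdkn1b (chr6:134920401-134925525, plus strand) was the most abundant of the 3 inhibitors, at 138 and 204 TPM in WT and 184 and 193 TPM in Dido1∆E16 cells, and differed from the other members in being higher in WT replicate 2 than in WT replicate 1, as was Rb1. Its log2 fold change of 0.17 (95% interval from -0.45 to 0.78) had an adjusted p of 0.819 in limma. The share of Cdkn1a in the summed TPM of Cdkn1a and Cdkn1b was 18.2% and 5.66% in WT and 22% and 15.8% in Dido1∆E16 cells. Cdkn2c (chr4:109660876-109666756, minus strand) was measured at 135 and 28.6 TPM in WT and at 70.2 and 62.8 TPM in Dido1∆E16 cells. Both Dido1∆E16 values lay between the WT values, and the log2 fold change of 0.09 (SE 0.77, adjusted p = 0.974 in limma) was set by which WT library was used, being 1.19 without WT replicate 1 and -1.02 without WT replicate 2.

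When the 16540 transcripts with a mean of at least 1 TPM were fitted singly by limma, no transcript of a member was called, beside 0.151% of all transcripts. The lowest unadjusted p among them was that of the full-length Ccnd2 transcript, 0.00257, with a log2 fold change of 1.90 and an adjusted p of 0.238.

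The spread between the WT libraries was larger than the difference between genotypes for most members. On the log2(TPM + 1) scale the gap between the WT libraries exceeded the absolute log2 fold change in 8 of the 10 members, all but Ccnd2 and Rb1, beside 58.1% of all genes tested. WT replicate 1 was higher than WT replicate 2 in 8 of the 10 members, with a median gap of 0.84, beside 57.9% of all genes and a median gap of 0.09. The gap was 0.28 for Ccnd2, 0.59 for Cdk4, 1.04 for Cdk6 and 2.21 for Cdkn2c, while that of the cycling-cell markers ran from 2.35 to 3.98. The part of this difference in cycling markers in each member's value was not tested. Both Dido1∆E16 libraries fell between the WT libraries for Ccne1, Cdk4, Cdkn1b and Cdkn2c, beside 2528 of all 11835 genes tested. The gap between the Dido1∆E16 libraries was at most 0.54 in any member.

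The level order of the members by mean TPM over the 4 libraries was Ccnd3, Cdk4, Cdkn1b, Rb1, Cdkn2c, Cdkn1a, Ccnd2, Ccne1, Cdk6 and Ccnd1. Ccnd3 exceeded Cdk4 in each library, with means of 830 and 306 TPM. The ranges of Cdk4 and Cdkn1b (mean 180 TPM, from 138 to 204) did not overlap, nor did those of Cdkn1b and Rb1 (mean 104 TPM, from 87.2 to 127), or of Cdk6 and Ccnd1. Each neighbouring pair from Rb1 down to Cdk6 overlapped. Ccnd2 ranked above both Ccne1 and Cdk6 in both Dido1∆E16 libraries and in WT replicate 2, and below both in WT replicate 1.

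Around the members, 43 further genes of the G1/S pathway were examined, of which 42 were tested and Cdkn2b was listed at 0 TPM in all 4 libraries. None was called by limma. The median log2 fold change was 0.19, beside 0.07 over all genes. At an unadjusted p under 0.05 in limma, 1 was higher (Cdkn1c), beside 8.67% of all genes, and 1 was lower (Cdt1), beside 3.04%. Without WT replicate 1 this count was 26 (25 higher), beside 21.9% of all genes, and without WT replicate 2 it was 19 (18 lower), beside 14.1%. It was 0 without Dido1∆E16 replicate 1, beside 9.21% of all genes, and 0 without Dido1∆E16 replicate 2, beside 6.84%. WT replicate 1 was higher than WT replicate 2 in 38 of the 42 genes, beside 57.9% of all genes. Both Dido1∆E16 libraries fell between the WT libraries in 28 of the 42, beside 2528 of all 11835 genes tested.

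Cdkn1c, which encodes the inhibitor p57, was measured at 2.11 TPM and listed at 0 in WT replicates 1 and 2 and measured at 6.22 and 8.99 TPM in Dido1∆E16 cells (log2 fold change 2.27, SE 0.68, adjusted p = 0.351 in limma). Of the other inhibitors, Cdkn2a was measured at no more than 3.25 TPM, and Cdkn2d, the INK4 gene p19INK4d, at 292 and 184 TPM in WT and 283 and 270 TPM in Dido1∆E16 cells (adjusted p = 0.741). Of the 3 tested inhibitors outside the members, all 3 had log2 fold changes above 0, beside 6899 of all 11835 genes tested. Among the 8 other cyclins and kinases none reached an unadjusted p under 0.05. Ccne2 was measured at 25.5 and 3.46 TPM in WT and at 12.1 TPM and listed at 0 in Dido1∆E16 cells, and Cdk2, the partner of cyclin E, at 115 and 41.2 TPM in WT and 69.2 and 54.8 TPM in Dido1∆E16 cells.

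The pocket proteins related to Rb1 had no call in limma. Rbl1 was measured at 63.9 and 16.6 TPM in WT and at 40.9 and 40 TPM in Dido1∆E16 cells, and Rbl2, which is linked to resting cells, at 50.2 and 44.1 against 52.1 and 63.7 TPM (log2 fold change 0.29, adjusted p = 0.628). Of the 10 E2f and Dp factors none reached an unadjusted p under 0.05. E2f1 was measured at 53.6 and 18.1 TPM in WT and at 24.6 and 24.1 TPM in Dido1∆E16 cells, and E2f2, the most abundant E2f gene here, at 590 and 371 against 420 and 438 TPM. Tfdp1, a dimer partner of E2f proteins, was measured at 56.3 and 16.4 against 50.1 and 46.2 TPM. Of the 6 ubiquitin ligase parts that act on G1 regulators none reached an unadjusted p under 0.05, with a median log2 fold change of 0.14.

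Over all 11835 genes tested, both Dido1∆E16 libraries lay between the WT libraries, in either order of those, in 2528. Among the 13 E2f target genes of DNA replication, 12 were highest in WT replicate 1 and lowest in WT replicate 2, with both Dido1∆E16 libraries between them. The exception was Cdt1, which loads the replicative helicase, at 85.5 and 86.2 TPM in WT and 60.8 and 65.1 TPM in Dido1∆E16 cells. Its log2 fold change of -0.44 (SE 0.13) had an unadjusted p of 0.0226 and an adjusted p of 0.337 in limma. The Mcm genes, Pcna and Rrm2 are in this list and, as background, are known to be expressed mainly in cycling cells.

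**Figure D3:**
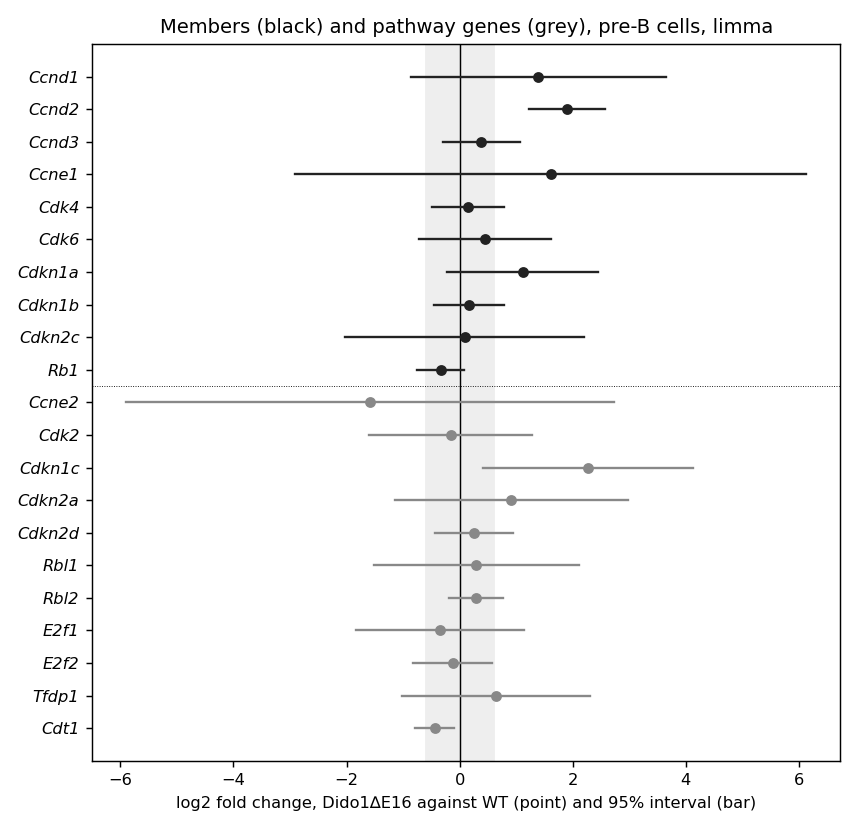
Log2 fold changes of Dido1∆E16 against WT gene sums in pre-B cells (x axis, point) with their 95% intervals from limma (bar), for the 10 members (black) and the named pathway genes (grey), the shaded band marking absolute values under 0.6. The Ccnd2 interval lies wholly beyond the band, while most other intervals include 0.

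In LSK progenitors, MACS2 peaks assigned to the members were fewer in both Dido1∆E16 libraries, as they were over the whole genome. With equal numbers of the best-scoring peaks, no member had fewer in both Dido1∆E16 libraries. Taking equal numbers removes any loss that is shared over the genome, so that count cannot show one. A peak here is a MACS2 region that ChIPseeker assigned to the gene with the nearest start site. The libraries held 27352 and 57739 peaks in WT and 13208 and 16329 peaks in Dido1∆E16, from 10249256, 52050898, 22533077 and 44633938 tags. The 10 members together had 25 peaks in WT replicate 1, 62 in WT replicate 2, 15 in Dido1∆E16 replicate 1 and 18 in Dido1∆E16 replicate 2. Per 10000 peaks of the library these were 9.14 and 10.7 in WT and 11.4 and 11 in Dido1∆E16. With HOMER the members had 30 and 70 peaks in WT and 24 and 37 in Dido1∆E16, so the genotypes overlapped. Over the genome HOMER called 24700 and 68357 peaks in WT and 15373 and 23839 in Dido1∆E16. The peak files hold no read counts, and a comparison of 2 against 2 libraries cannot reach significance in an exact permutation test.

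Both Dido1∆E16 libraries had fewer peaks than both WT libraries for 2 of the 10 members, Cdk6 and Rb1, beside 35.6% of the 17769 genes with a peak, and by these counts no member had more in both. With one library left out this count was 6 without WT replicate 1 (beside 74.1% of genes), 2 without WT replicate 2 (37.1%), 4 without Dido1∆E16 replicate 1 (41.5%) and 5 without Dido1∆E16 replicate 2 (44.1%). Per 10000 peaks of the library, 1 member (Rb1) had fewer in both Dido1∆E16 libraries, beside 20.8% of genes. By that measure 2 (Cdk4 and Cdkn1b) had more in both, beside 28.0%. Each of these had 1 peak in every library, so its scaled value was set by the library total alone. With HOMER peaks the count was 1 (Rb1), beside 19.5% of genes. With 13208 best-scoring peaks taken from each library it was 0, beside 7.16% of genes, and 0 members had more in both, beside 6.57%. For promoter peaks alone the count with fewer was also 0, beside 11.3% of genes.

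Cdk6 had the most peaks of the members, with 9 and 22 in WT and 4 and 7 in Dido1∆E16. Rb1 had 3 and 5 in WT and 1 and 0 in Dido1∆E16. Ccnd1 had 1 and 9 in WT and 0 and 1 in Dido1∆E16, Ccnd3 had 3 and 10 against 3 and 1, and Ccne1 had 2 and 8 against 3 and 2. The highest count in each of these was that of WT replicate 2, the library with the most tags and peaks. Dido1∆E16 replicate 2 had 44633938 tags, beside 52050898 in WT replicate 2, and 16329 peaks, beside 57739. The part of depth in these counts was not tested. Cdk4 and Cdkn1b had 1 peak in each of the 4 libraries. Cdkn1a had 1 and 3 in WT and 0 and 1 in Dido1∆E16, and Cdkn2c had 3 and 2 against 1 and 4. Ccnd2 had 1 and 1 in WT and 1 and 0 in Dido1∆E16. Among the best-scoring peaks Cdk6 kept 4 and 4 in WT and 4 and 6 in Dido1∆E16.

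**Figure D4:**
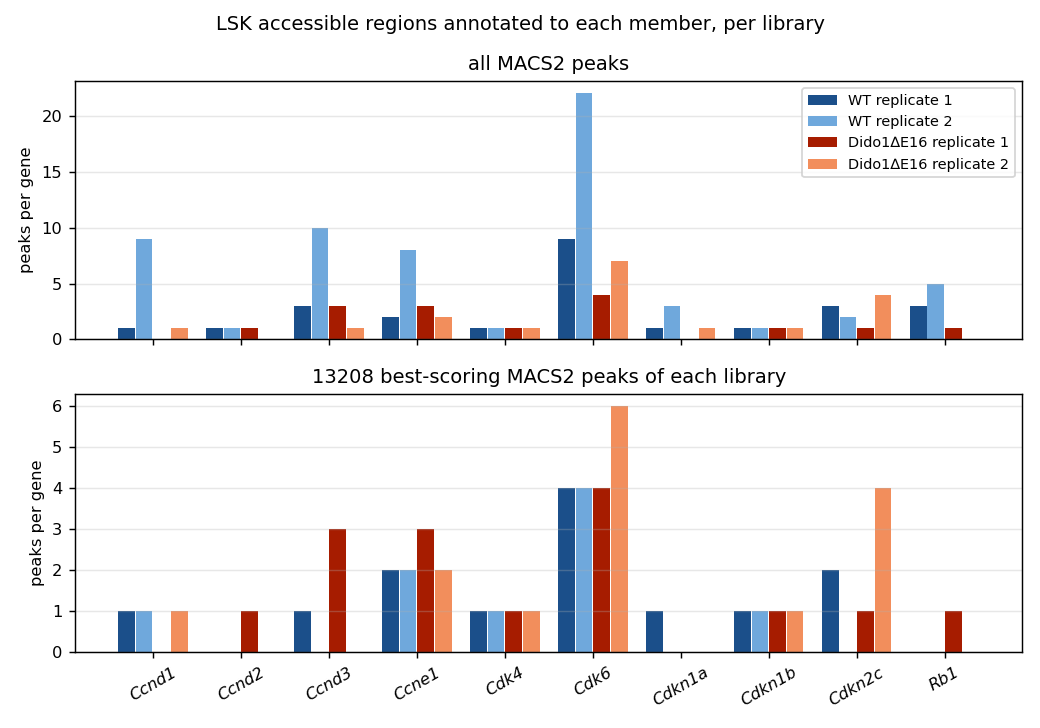
Number of MACS2 peaks annotated to each member in LSK cells (y axis, from 0), with 1 bar per library, for all peaks (top) and for 13208 best-scoring peaks from each library (bottom). The tall bars of WT replicate 2 in the top panel are absent from the bottom panel, where Cdk6 has 4, 4, 4 and 6 peaks.

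Ccne1, Cdk4, Cdkn1b and Cdkn2c held a MACS2 peak at a start site in every library, and the other members did not. The window ran from 1000 bases before to 200 bases after the start of each transcript, and any peak in it counted, whichever gene it was assigned to. The Cdk4 window, with the 4 E-boxes printed above, held a peak with a score of 51 and 153 in WT and 51 and 38 in Dido1∆E16. Cdkn1b had scores of 77 and 199 in WT and 64 and 45 in Dido1∆E16, and Ccne1 had 76 and 146 against 42 and 34. The start of the longer Cdkn2c transcript had scores of 79 and 84 in WT and 42 and 48 in Dido1∆E16. MACS2 scores depend on the depth of the library, so they are given side by side only.

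Weaker windows were called less regularly. Cdk6 had a score of 22 and 38 in WT and 15 in Dido1∆E16 replicate 1, and no MACS2 or HOMER peak in the window in Dido1∆E16 replicate 2. The wider promoter region (chr5:3342110-3344683) held a further MACS2 peak with a score of 43 in Dido1∆E16 replicate 1, and HOMER called 2 peaks in it in each Dido1∆E16 library. Rb1 had a score of 21 and 49 in WT and 25 in Dido1∆E16 replicate 1, and no MACS2 peak in Dido1∆E16 replicate 2. HOMER called a peak there in replicate 2 but not in replicate 1. The Ccnd2 start, where ChIPseeker assigned the MACS2 peaks to 9330179D12Rik, had no MACS2 peak in WT replicate 1, a score of 57 in WT replicate 2 and scores of 31 and 16 in the Dido1∆E16 libraries, while HOMER called a peak there in all 4. The upstream start of Ccnd3 had a MACS2 peak only in WT replicate 2, with a score of 26, although Ccnd3 was the most abundant member in pre-B cells. HOMER called a peak at that Ccnd3 start in WT replicate 2 and Dido1∆E16 replicate 2. The downstream Ccnd3 start had a MACS2 score of 63 in WT replicate 2 and 36 in Dido1∆E16 replicate 1, and no MACS2 peak in the others. Ccnd1 had a MACS2 peak at its start in WT replicate 2 only, with a score of 33. With HOMER, the Ccnd1 start had a peak in both WT libraries and in neither Dido1∆E16 library. The start windows of the Cdkn1a transcripts with a level above 0 in pre-B cells held no peak in any LSK library. A promoter peak was annotated to Cdkn1a at another start, with a MACS2 score of 25 in WT replicate 2, and HOMER annotated a Cdkn1a promoter peak in WT replicate 2 and Dido1∆E16 replicate 2.

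Regions present in both WT libraries were followed next. Overlapping MACS2 peaks of the 2 WT libraries formed 25761 regions, of which 43.1% had no peak in either Dido1∆E16 library. The members had 24 such regions, and 8 of these (33.3%) had no Dido1∆E16 peak. All 6 regions at member promoters had a peak in at least 1 Dido1∆E16 library, beside 14.9% of all promoter regions without one. Of the 18 member regions outside promoters the same 8 lacked a peak, beside 60.8% of all such regions. With the same number of best-scoring peaks from each library the members had 8 regions, and none lacked a Dido1∆E16 peak, beside 13.3% of all regions. With one library left out, the count of member regions without a Dido1∆E16 peak was 44 of 62 without WT replicate 1 (71.0%, beside 69.9% of all regions) and 8 of 25 without WT replicate 2 (32%, beside 45.6%). It was 11 of 24 without Dido1∆E16 replicate 1 (45.8%, beside 50.5%) and 13 of 24 without Dido1∆E16 replicate 2 (54.2%, beside 57.4%).

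The 8 regions without a Dido1∆E16 peak were 3 of Cdk6, 2 of Rb1 and 1 each of Ccnd2, Ccnd3 and Cdkn1a. Of these, 4 were also without a HOMER peak in both Dido1∆E16 libraries. These 4 were chr5:3223923-3224224, at -119669 bases from the start of Cdk6, chr5:3404874-3405732 in an intron of Cdk6, chr14:73222457-73222959 in an intron of Rb1, and chr14:73333887-73334216, at -8096 bases from the start of Rb1. The median score of the 8 regions was 32.5 and 45.5 in WT replicates 1 and 2, beside 48.5 and 114 in the 16 member regions with a Dido1∆E16 peak and 27 and 58 in all regions without one. The Cdkn1a region (chr17:29095271-29095796, intron) and the Ccnd2 region (chr6:127143014-127143421, intron) had WT scores of 36 and 45 and of 23 and 26.

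The shortest of the 8 regions, in an intron of Cdk6 (chr5:3494454-3494688), is shown as an example, on the plus strand and with a Runx motif (TGTGGT, either strand) in capitals.
Cdk6 intron region: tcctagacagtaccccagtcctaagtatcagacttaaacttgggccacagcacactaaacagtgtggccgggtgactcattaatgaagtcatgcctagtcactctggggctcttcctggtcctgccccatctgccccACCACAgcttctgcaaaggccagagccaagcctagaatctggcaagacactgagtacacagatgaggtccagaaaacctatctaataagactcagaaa
This region held 1 Runx match. It held no match to the Gata motif AGATAA on either strand. It also lacked the Ets motif, searched with the letters CCGGAA, and the E-box whose letters are CAGCTG. Over the centres of all shared WT regions, taken at the same length of 235 bases, the Runx motif was found in 21.4%, the Gata motif in 7.69%, the Ets motif in 12.3% and that E-box in 16.3%. HOMER called a peak in this Cdk6 region in both Dido1∆E16 libraries, so its absence from the MACS2 lists depended on the caller.

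**Figure D5:**
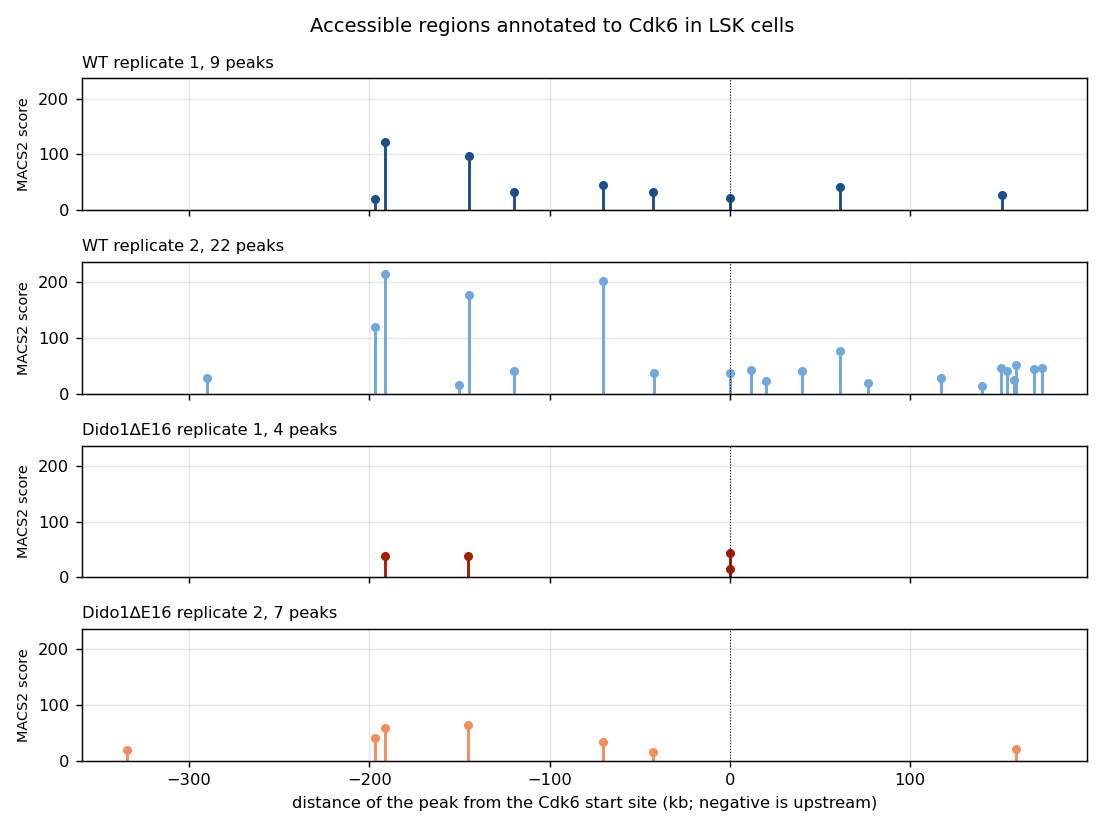
MACS2 score (y axis, from 0) of each LSK peak annotated to Cdk6 against its distance from the start site in kb (x axis, negative values upstream), with 1 panel per library. The peaks near -191230 and -144950 bases are present in all 4 libraries, and the intronic peaks of WT replicate 2 are mostly absent from the others.

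Cdk6 had the widest field of open regions. Regions at -191230 and -144950 bases from its start held a peak in all 4 libraries, with scores of 122 and 98 in WT replicate 1, 215 and 177 in WT replicate 2, 38 and 39 in Dido1∆E16 replicate 1 and 58 and 64 in Dido1∆E16 replicate 2. Both were among the 3 strongest Cdk6 peaks of each library. ChIPseeker assigns such distant peaks by the nearest start, so their link to Cdk6 is one of position only.

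In the authors' lists of differential regions, which give log2 tags per library scaled to a common total, 6 separate regions overlapped peaks of the members, 3 of Cdk6, 2 of Cdkn2c and 1 of Ccnd1. The lists used here hold 13762 entries, some of which overlap, and in both lists the median entry is higher in WT, so these values were selected for a difference and are given as a description. The Cdk6 region at -144696 bases (chr5:3198007-3199201) had 7.70 and 7.52 log2 tags in WT and 6.44 and 6.49 in Dido1∆E16. The Cdk6 promoter region (chr5:3341118-3344861) had 8.66 and 8.41 in WT and 7.95 and 7.62 in Dido1∆E16. The Cdkn2c promoter region (chr4:109665051-109667541), which includes the sequence printed above, had 8.57 and 8.66 against 8.11 and 7.56, and the region upstream of Ccnd1 (chr7:144970936-144971497) had 6.26 and 5.82 against 5.03 and 5.37. No region of Ccnd2, Ccnd3, Ccne1, Cdk4, Cdkn1a, Cdkn1b or Rb1 was in the lists. The LSK and pre-B values come from different cells and animals, and were not joined in a test.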

How the data were processed

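Omni-ATAC-seq of LSK cells and RNA-seq of pre-B cells were analysed (2 libraries per genotype each). For ATAC-seq the study's methods give 3 samples a genotype and the labels 2. ChIP-seq data were not analysed here. A marker of the B lineage, and the marker sum that includes it, are not reported here.

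The authors aligned reads to mm10 with BWA 0.7.15 and Bowtie2, used MACS2 and HOMER for peaks of single libraries, ChIPseeker to annotate them, and StringTie with UCSC known genes for RNA. Transcript levels were deposited as TPM and FPKM, with exon coverage. Each deposited MACS2 peak has a score. Log2 tags per library stand in the differential lists that the authors deposited. Their fold changes and p-values, and the edgeR tables apart from gene symbols, were not used.

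TPM was summed per gene. The authors' files name 30126 of 63924 transcripts, which hold 74.9% to 76.7% of the TPM. Unnamed transcripts with at least 50% of their exonic bases in a GENCODE M21 gene took its symbol, giving 56386 named transcripts and 97.4% to 97.7% of the TPM. This was decided after the main Ccnd3 transcript was found unnamed. Gene sums with a mean of at least 1 TPM were fitted on log2(TPM + 1) by genotype with limma 3.58.1 (R 4.3.3, eBayes with a trend, Benjamini-Hochberg), which was tested on simulated data. Libraries are pools, and labels do not say that replicates shared a day or litter. Depth behind a TPM is known only as aligned bases. Peaks were joined from 1 bp of overlap. Alternatives were a pseudocount of 0.1, no filter, FPKM, median-centring, no trend, a replicate block, the authors' symbols only (chosen after seeing the data), HOMER peaks, 50% overlap, equal numbers of peaks, peaks per 10000, promoters only and leaving out each library.

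The members and gene lists were chosen with earlier results of these data known. Named beside the members are pathway genes with an unadjusted p under 0.05, the 3 largest changes in each direction, and Ccne2, Cdk2, Cdkn2d, Rbl1, Rbl2, E2f1 and E2f2.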

Additional observations from a re-analysis of the deposited data

How the results depend on the processing

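The 6 genes called over all gene sums became 0 with a pseudocount of 0.1, 0 without a filter, 0 with the replicate block, 118 without a trend in eBayes and from 0 to 230 with one library left out, where the lone library of a genotype is assumed to vary like the others. No member was called under any of these. The count of members at an unadjusted p under 0.05 was 2 with the replicate block (Ccnd2 and Cdkn1a) and from 1 to 9 with one library left out, and that of pathway genes was 1 with a pseudocount of 0.1, 1 with the authors' symbols only, and from 0 to 26 with one library left out. With the replicate block, 9.07% of all genes tested reached an unadjusted p under 0.05 in limma, 6.89% higher and 2.18% lower. That share of all genes was 11.4% with a pseudocount of 0.1 and 10.7% with the authors' symbols only. Same-numbered libraries shared little beyond the number (correlation of their deviations 0.05), and the block changed no other call of a member.

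With one library left out, the log2 fold change ran from -0.77 to 3.99 for Ccne1, -0.15 to 0.44 for Cdk4, -0.071 to 0.97 for Cdk6, -0.12 to 0.45 for Cdkn1b, -1.02 to 1.19 for Cdkn2c, -3.44 to 0.27 for Ccne2, -0.89 to 0.57 for Cdk2, -0.076 to 0.59 for Cdkn2d, -1.1 to 0.41 for E2f1, -0.46 to 0.21 for E2f2, -0.65 to 1.24 for Rbl1 and -0.22 to 1.5 for Tfdp1. The sign turned without WT replicate 1 for Cdkn1b, Cdk2, E2f1 and E2f2, without Dido1∆E16 replicate 2 for Ccne2 and Cdk2, and without WT replicate 2 for the others. The cause was not tested. Members with fewer peaks in both Dido1∆E16 libraries numbered 1 with HOMER, 1 per 10000 peaks, 0 with equal numbers of peaks, 0 for promoters and 2 to 6 with one library left out. With HOMER, 4 of 28 shared member regions (14.3%) had no Dido1∆E16 peak, beside 27.4% of all regions. With equal numbers of peaks 0 of 8 lacked one, beside 13.3% of all regions. With one library left out the count ran from 8 to 44. Peak lists without read counts limit the ATAC-seq comparison to presence and score.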
